A study of Homo sapiens with 33 samples.

Results

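Tiles hTR_1 to hTR_193 were the scarcest oligonucleotides of the pool named for telomerase RNA (hTR), and their level in the FLAG-hTERT immunoprecipitate was close to their level in Input. They make up 31.4% of the tiles of the pool, which are named hTR_1 to hTR_614, and the 5 pools of the series hold 3358 tile names in all. Each tile was listed with 25 barcodes, so the range holds 4825 of the 15350 oligonucleotides of the pool. The range was chosen by the log2 ratio of immunoprecipitate to Input in replicate 1, in an earlier division of the pool along the tile numbers that placed borders where this ratio changed. Values of replicate 1 are therefore given as a description, and tests rest on replicates 2 and 3, which did not place the borders.

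The pool was transfected into HEK293T, a telomerase-positive human embryonic kidney line, and the labels give FLAG-hTERT, the tagged protein subunit of telomerase, as overexpressed in both groups. At 48 hours the cells were collected, and crosslinking took 10 minutes in 0.1% formaldehyde. Input is RNA before precipitation, and the immunoprecipitate is RNA recovered with an antibody against FLAG. Each group held 3 libraries, and no control precipitation was among the hTR groups, so recovery with hTERT cannot be told apart from recovery in any FLAG precipitation.

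Telomerase RNA, encoded by TERC, carries the template that hTERT copies into telomeric repeats. Its template and pseudoknot region and a separate stem-loop domain are contacted by hTERT, whereas its H/ACA domain binds dyskerin and its partners, which stabilise the RNA. The pool is named for telomerase RNA, but the tile names give a number and no position, and tile sequences were not used here. Whether each tile comes from telomerase RNA was therefore not tested, and no tile was assigned to one of these domains.

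The 6 libraries held 7108444 to 11780535 reads. Libraries of replicate 1 stood apart from the others: the chi-square statistic per degree of freedom of the tile counts was 1416 and 1560 between Input replicate 1 and the other Input libraries, against 57.7 between Input replicates 2 and 3. In the immunoprecipitate it was 863 and 1715 against 239.5. Whether replicates came from separate cultures is not in the labels. The spread behind each p-value is that between libraries and could be technical.

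The scarcity of the range was plain in every library. In Input the range took 9.06%, 3.03% and 2.94% of the reads in replicates 1, 2 and 3. In the immunoprecipitate they took 10.0%, 3.23% and 3.97%. The 95% Wilson interval of each of these shares was within 0.0196 percentage points of the value, and like all intervals here it covers counting error only, since PCR reads without molecular identifiers are not independent molecules. The shares of the immunoprecipitate were thus 1.10, 1.06 and 1.35 times those of Input. For tiles hTR_194 to hTR_307 the same quotient was 1.94, 1.92 and 1.76, and for tiles hTR_421 to hTR_614 it was 0.611, 0.497 and 0.591.

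The median tile of the range had 3249, 1091 and 1077 Input reads in replicates 1, 2 and 3, against 14815, 16476 and 16510 for the median of the other tiles. No tile of the range lacked reads in any library. The lowest count was 206, for hTR_86 in immunoprecipitate replicate 2, and the highest was 32529, for hTR_184 in immunoprecipitate replicate 1. Scarcity was not even along the tile numbers. Tiles hTR_1 to hTR_10 had a median of 3009 and 3093 Input reads in replicates 2 and 3, tiles hTR_11 to hTR_183 one of 1054 and 1029, and tiles hTR_184 to hTR_193 one of 1933 and 2024. Just outside, tiles hTR_194 to hTR_203 had medians of 8343 and 8873. These stretches were chosen after the values were seen.

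The tile of the range with most Input reads was hTR_184. It had 29441, 9007 and 10034 reads in the Input libraries and 32529, 9867 and 10923 in the immunoprecipitate. As CPM, a read count normalised to the library size with TMM scaling, this was 2519, 1277 and 1418 in Input and 2418, 1313 and 1613 in the immunoprecipitate. The groups overlapped, and the log2 fold change over replicates 2 and 3 was 0.23 ± 0.18 (SE, n = 2 against 2, adjusted p = 0.269 in edgeR). Next came hTR_7 and hTR_9, with 30850 and 27197 Input reads over the 3 libraries and log2 fold changes of 0.42 and 0.44 over replicates 2 and 3. At the other end hTR_57 had 1756, hTR_166 had 2070 and hTR_155 had 2194.

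Replicate 1 differed from the others in the level of the whole range, and it did so in both fractions. In Input, the share of the library's reads taken by a tile was higher in replicate 1 than in replicates 2 and 3 for every tile of the range, with a median of 3.01 times their mean (range 1.13 to 6.70). In the immunoprecipitate the same held for every tile of the range, with a median of 2.88 times (range 1.66 to 5.84). For tiles hTR_194 to hTR_307 the medians were 0.735 in Input and 0.740 in the immunoprecipitate, and for tiles hTR_421 to hTR_614 they were 1.26 and 1.41. Within replicates 2 and 3 the Input level of the median tile of the range differed little, at 1.03 times in replicate 2 that in replicate 3.

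Set against Input of the same number, the range sat in the middle of the pool. The log2 ratio of tiles hTR_1 to hTR_193 ran in replicate 1 from -0.56 to 1.66 (median 0.50), in replicate 2 from -1.84 to 1.20 (median 0.04) and in replicate 3 from -0.80 to 1.41 (median 0.24). The median over all tiles of the pool was 0.49, -0.09 and 0.05. Where 0 lies depends on the scaling of the libraries, and so do counts above or below it. Ratios above 0 were found for 182, 102 and 144 tiles in replicates 1, 2 and 3. These were 94.3%, 52.8% and 74.6% of the range, against 68.6%, 47.6% and 52.8% of all tiles. In all 3 replicates 75 tiles (38.9%) were above 0, near the 41.4% of all tiles. Below 0 in all 3 was 1 tile (0.518%), against 29.8% of all tiles. Of tiles hTR_194 to hTR_307, 98.2% were above 0 in all 3, and of tiles hTR_421 to hTR_614, 89.2% were below. Of tiles hTR_308 to hTR_420, 58.4% were above 0 in all 3 and 7.96% below.

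The distance from 2 of the other 3 ranges had the same sign in every replicate. The median of tiles hTR_1 to hTR_193 was lower than that of tiles hTR_194 to hTR_307 by 0.80, 0.98 and 0.50 on the log2 scale (median differences -0.80, -0.98 and -0.50), and higher than that of tiles hTR_421 to hTR_614 by 0.90, 1.10 and 1.16. Against tiles hTR_308 to hTR_420 the differences were -0.54, -0.33 and 0.11, so the sign was not shared. Leaving out replicate 1, an exact two-sided permutation test over the 2 pairs of libraries cannot give a p below 0.5, so these differences are descriptions. Scaling of the libraries moves the medians and leaves these distances almost as they are. Library size alone shifted the median of all tiles by -0.32, 0.05 and 0.17, and RLE size factors by 0.02, 0.26 and 0.08.

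The upper border was placed by replicate 1, so its step there was fixed by the choice of the range. The last 5 tiles inside, hTR_189 to hTR_193, had log2 ratios of 0.35 to 0.65 in replicate 1, -0.24 to 0.36 in replicate 2 and -0.23 to 0.99 in replicate 3. The first 5 outside, hTR_194 to hTR_198, had 1.23 to 1.75, 0.78 to 1.58 and 0.62 to 1.00. The 2 sides were apart in replicate 2 and overlapped in replicate 3. Input levels of the 2 sides did not overlap in replicates 2 and 3, from 156 to 474 and 119 to 550 CPM inside to 694 to 1901 and 695 to 2113 CPM outside. In Input replicate 1 the levels on both sides overlapped, at 298 to 831 CPM inside and 268 to 691 CPM outside.

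In the 6 libraries without pairing, edgeR called 0 tiles of the range in either direction, and 0% of all tiles of the pool were called higher and 0% lower. At an unadjusted p under 0.05 the range also had 0 tiles, where the pool had 112 higher and 140 lower. DESeq2 called 0 tiles of the range, where it called 92 tiles of the pool higher and 52 lower. It returned no adjusted p for 165 tiles of the range (against 2 of the others), and 7 had an unadjusted p under 0.05. With library size as the only scaling, edgeR called 148 tiles of the pool higher and 142 lower, and again 0 of the range. The smallest p values of edgeR belonged to hTR_72 (log2 fold change 1.04), hTR_109 (1.04), hTR_4 (0.63), hTR_176 (0.92) and hTR_106 (0.95), with adjusted p from 0.199 to 0.226. When the fit took the replicate number as a block, 19 tiles were called higher and 0 lower, among them these 5, where 28.8% of all tiles were called higher and 27% lower. Without Input replicate 1 and without a block, 4 tiles of the range were called higher and 0 lower, of 95 and 180 in the pool. As replicate 1 placed the borders, these counts only describe the range.

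In replicates 2 and 3 alone, edgeR called 33 tiles of the range higher in the immunoprecipitate and 1 lower. Over all tiles of the pool, 32.9% were called higher and 32.7% lower. In the range both shares were smaller, with 17.1% of its tiles called higher and 0.518% lower. The median SE of the log2 fold change was larger in the range, at 0.28 against 0.19 over all tiles, and its tiles had fewer reads. The part of either in the smaller shares of calls was not tested. The fitted log2 fold changes of the 33 ran from 0.42 to 1.12 (1.34-fold to 2.17-fold, median 0.80). In replicate 1, 30 of the 33 were above 0, as were 94.3% of the whole range, so this count says nothing about the called tiles. The median fold change of the range was 0.23 on the log2 scale, against 0.14 over all tiles. The 33 tiles were spread along the numbers, with 14 among hTR_1 to hTR_64, 11 among hTR_65 to hTR_128 and 8 among hTR_129 to hTR_193, and 7 pairs of them were neighbours. With the block, 25 were called higher, all among the 33, and 1 lower, where 32.2% of all tiles were called higher and 33.9% lower.

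The number of calls depended on single libraries. Without Input replicate 2 the number called higher was 11, and without Input replicate 3 it was 6. Without immunoprecipitate replicate 2 it was 43, and without immunoprecipitate replicate 3 it was 42. The pool moved as well, from 202 called higher to 142 and 138 without Input replicates 2 and 3 and to 200 and 225 without immunoprecipitate replicates 2 and 3. The number called lower, 1 with all 4 libraries, was 0 without either Input library, 5 without immunoprecipitate replicate 2 and 13 without immunoprecipitate replicate 3. The pool, with 201 called lower, then had 163 and 140 without Input replicates 2 and 3 and 220 and 226 without immunoprecipitate replicates 2 and 3. In each of these fits 1 group is a single library, whose spread is assumed to be like that of the other group.

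The clearest of the called tiles was hTR_4, one of the abundant tiles at the start of the range. Its level was 923, 422 and 430 CPM in Input replicates 1, 2 and 3 and 1281, 651 and 816 CPM in the immunoprecipitate. Within each replicate the immunoprecipitate was higher, while Input replicate 1 lay above immunoprecipitate replicates 2 and 3, so the groups of 3 overlapped. Over replicates 2 and 3 the log2 fold change was 0.90 ± 0.21 (SE, n = 2 against 2, 1.87-fold, adjusted p = 5.47e-05 in edgeR). Of its barcodes with at least 30 reads, 16 of 21, 10 of 15 and 14 of 17 were higher in the immunoprecipitate of replicates 1, 2 and 3. It was the 1 tile of the 10 highest that stayed below an adjusted p of 0.05 under all 14 settings that refit the data (up to 0.0256 in edgeR or DESeq2). It does not reach a log2 fold change of 1, which hTR_142, hTR_172, hTR_106 and hTR_72 do.

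The largest fold change was that of hTR_142, with 179, 115 and 81.8 CPM in Input and 298, 223 and 169 CPM in the immunoprecipitate. It was higher in every replicate, by log2 ratios of 0.74, 0.96 and 1.05, and the fit of replicates 2 and 3 gave 1.12 ± 0.29 (SE, adjusted p = 2.36e-04 in edgeR). In each of replicates 2 and 3, 7 of 13 barcodes were higher. The call was lost without Input replicate 3 (adjusted p = 0.0775 in edgeR) and with odd-numbered barcodes alone (adjusted p = 0.182 in edgeR).

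hTR_172 followed, at 248, 115 and 116 CPM in Input and 309, 213 and 249 CPM in the immunoprecipitate. Its log2 fold change was also 1.12 ± 0.28 (SE, adjusted p = 1.65e-04 in edgeR), and 12 of 18, 9 of 15 and 12 of 15 barcodes were higher. For hTR_106 the values were 233, 105 and 107 CPM in Input and 457, 204 and 199 CPM in the immunoprecipitate, a difference of nearly the same size in each replicate (log2 ratios of 0.97, 0.96 and 0.90). Its fitted value was 1.05 ± 0.29 (SE, adjusted p = 5.29e-04 in edgeR), with 16 of 18, 11 of 14 and 6 of 13 barcodes higher. The call of hTR_172 was lost with even-numbered barcodes alone (adjusted p = 0.655 in edgeR). That of hTR_106 was lost with odd-numbered barcodes alone (adjusted p = 0.760 in edgeR).

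The rest of the 10 highest were uneven between replicates. hTR_72 (1.03) had log2 ratios of 1.16, 1.20 and 0.48, hTR_27 (0.97) of 0.54, 0.34 and 1.37, and hTR_109 (0.92) of 1.25, 0.23 and 1.41. In replicate 1 hTR_47 (0.92) and hTR_79 (0.86) went the other way, at -0.37 and -0.17. hTR_15 (0.87) was at 0.23, 0.68 and 0.82. With odd-numbered barcodes alone hTR_72, hTR_15 and hTR_47 reached their highest adjusted p of any setting (0.306, 0.236 and 0.157 in edgeR). hTR_79 did so with even-numbered barcodes alone (0.328), and in each case the call was lost. For hTR_27, hTR_72, hTR_79, hTR_109 and hTR_15 the call was lost without Input replicate 3 (adjusted p in edgeR from 0.0740 to 0.259), and for hTR_15 and hTR_47 without Input replicate 2 (0.114 and 0.151). For hTR_72 it was also lost without immunoprecipitate replicate 2 (0.186), and for hTR_109 without its barcode of most reads (0.0593).

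The single tile called lower was hTR_182. It had 327, 195 and 227 CPM in Input and 461, 79.7 and 164 CPM in the immunoprecipitate, so replicate 1 went up where replicates 2 and 3 went down. The log2 fold change over replicates 2 and 3 was -0.68 ± 0.28 (SE, adjusted p = 0.0259 in edgeR), and 5 of 16 and 4 of 15 barcodes were higher. The call was lost in each of 3 of the 4 fits that left out a library, without Input replicate 2 (adjusted p = 0.101), without Input replicate 3 (0.310) and without immunoprecipitate replicate 2 (0.196), and also without its barcode of most reads (0.139). The other 9 of the 10 lowest tiles, hTR_61, hTR_153, hTR_105, hTR_84, hTR_77, hTR_65, hTR_62, hTR_183 and hTR_86, had log2 fold changes of -0.50 to -0.35 and adjusted p from 0.0987 to 0.369 in edgeR. All 10 had log2 ratios above 0 in replicate 1, from 0.20 to 0.79.

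Groups that do not overlap give a view that does not rest on a model. In replicates 2 and 3 both immunoprecipitate libraries were above both Input libraries for 76 tiles of the range (39.4%), close to the 41.9% of all tiles, and both were below for 10 (5.18%), against 37.1% of all tiles. Over the 6 libraries 2 tiles of the range, hTR_1 and hTR_166, had all immunoprecipitate libraries above all Input libraries (16.6% of all tiles did), and 0 had them below (25.2% of all tiles). These 2 tiles are named because of their values. The higher level of the range in replicate 1 limits the counts over 6 libraries. Its median Input CPM in replicate 1 was 278, above the immunoprecipitate medians of 169 and 175 in replicates 2 and 3. Its immunoprecipitate median in replicate 1 was 394, above the Input medians of 155 and 152 in replicates 2 and 3. Few tiles of the range could thus be apart over 6 libraries, whatever their ratio within a replicate.

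Differences between tiles inside the range were barely shared by the replicates. Across the tiles of the range, Pearson's r of the log2 ratios was 0.07 between replicates 1 and 2, 0.09 between 1 and 3 and 0.20 between 2 and 3. In tiles hTR_194 to hTR_307 the same values were 0.27, 0.31 and 0.82, and in tiles hTR_421 to hTR_614 they were 0.54, 0.55 and 0.73. Input levels within the range were shared more closely, with r of the log2 CPM of 0.78 and 0.81 between replicate 1 and the others and 0.90 between replicates 2 and 3. All tiles of a library share its depth and scaling, and tiles are not independent replicates. Between neighbouring tiles, r of the log2 ratio was 0.11, 0.02 and -0.03. It was also low in tiles hTR_308 to hTR_420 (0.09, 0.15 and 0.13) and hTR_421 to hTR_614 (0.13, 0.13 and 0.09). In tiles hTR_194 to hTR_307 it was -0.09, 0.38 and 0.28.

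Barcodes listed under 1 tile repeat its measurement within a library. In the range the log2 ratio from odd-numbered barcodes and that from even-numbered barcodes had r of 0.07, -0.02 and -0.01 in replicates 1, 2 and 3. In tiles hTR_194 to hTR_307 the values were 0.37, 0.67 and 0.72, and in tiles hTR_421 to hTR_614 they were 0.52, 0.50 and 0.48. The median tile of the range had fewer Input reads than that of either of these ranges. The part of depth in these differences was not tested. Within the range, barcodes of 1 tile differed by an SD of 2.16, 2.37 and 2.07 on the log2 scale (medians over tiles, barcodes with at least 30 reads). In tiles hTR_194 to hTR_307 the SD was 1.49, 0.83 and 0.76, and in tiles hTR_421 to hTR_614 it was 1.70, 1.84 and 1.52. For the unweighted mean over the barcodes of a tile of the range, its SD gives an SE of 0.51, 0.63 and 0.53. The log2 ratio from summed reads, in which barcodes of many reads weigh more, had an SD between the tiles of 0.35, 0.48 and 0.42. The first is not the error of the second, so the 2 cannot be compared directly.

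Calls made from odd-numbered and from even-numbered barcodes had little in common within the range. In replicates 2 and 3 odd-numbered barcodes gave 12 tiles called higher and even-numbered barcodes 18. They shared 1 tile, 8.33% of the first list and 5.56% of the second. Among the other tiles of the pool, 157 and 154 were called higher and 147 were shared (93.6% and 95.5%). The shared tile of the range was hTR_4, with log2 fold changes of 0.79 ± 0.29 (SE) from odd and 0.90 ± 0.25 from even barcodes (adjusted p = 0.0204 and 0.00235 in edgeR). hTR_172 was at 1.75 ± 0.40 from odd and 0.30 ± 0.52 from even barcodes, and hTR_106 at 0.27 ± 0.64 and 1.24 ± 0.34. This comparison was chosen after the data were seen.

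Windows of 5 tiles average over more barcodes than single tiles. Windows inside the range had mean log2 ratios of 0.18 to 0.92 in replicate 1, -0.63 to 0.71 in replicate 2 and -0.24 to 0.71 in replicate 3. By the mean over replicates 2 and 3 the highest were tiles hTR_106 to hTR_110 (0.55), hTR_45 to hTR_49 (0.52) and hTR_15 to hTR_19 (0.41), which held 3, 3 and 2 tiles called higher. Their means in replicate 1 were 0.79, 0.42 and 0.48. The lowest windows were tiles hTR_179 to hTR_183 (-0.33), hTR_61 to hTR_65 (-0.32) and hTR_149 to hTR_153 (-0.26), with 0.48, 0.55 and 0.23 in replicate 1. In replicate 1 every window was above 0, the lowest ones by replicates 2 and 3 included. The median over all tiles of the pool was itself 0.49 there, and where 0 lies depends on the scaling.

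Depth was thin at the level of single barcodes. Of the 4825 barcodes of the range, 913 (18.9%) had no read in any library and 2389 (49.5%) had reads in all 6, against 20.1% and 65.8% of the 10525 barcodes of the other tiles. The median barcode had 50, 22 and 20 reads in Input replicates 1, 2 and 3 and 142, 6 and 17 in the immunoprecipitate. Barcodes with Input reads but none in the immunoprecipitate were 1.89% in replicate 1, 20.7% in replicate 2 (719 of 3475, 95% Wilson interval 19.4% to 22.1%) and 11.6% in replicate 3. Elsewhere in the pool these shares were 1.36%, 6.98% and 5.44%, at a greater depth, so the losses and the depth move together and the part of depth in them was not tested. Counted by barcodes rather than reads, 45.0% of the barcodes used were higher in the immunoprecipitate in replicate 2, although the median tile was above 0. This share was near that of all tiles of the pool, 44.7%. In replicates 1 and 3 the shares were 70.7% and 54.9%, against 66.0% and 46.4% for all tiles.

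In 3 tiles the replicates differed most. hTR_86 had 206 reads in immunoprecipitate replicate 2, the lowest count of the range. Its log2 ratios were 0.79, -1.84 and 0.34, with 1 of 8 barcodes higher in replicate 2. hTR_124 had 1.58, -1.01 and 0.30, with 1 of 13, and hTR_58 had 1.12, -1.19 and 0.39, with 2 of 10. In each of the 3 tiles replicate 1 was highest and replicate 2 lowest, the same order as that of the medians of the range.

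The log2 ratio of a tile was weakly related at most to how scarce the tile was. Against the mean log2 Input CPM of the other 2 replicates, which shares no count with the ratio, r over the tiles of the range was -0.14, -0.04 and -0.04 in replicates 1, 2 and 3. Over replicates 2 and 3 the 3 tiles with most Input reads had log2 fold changes of 0.23 to 0.44 and the 3 with fewest 0.10 to 0.55, so they overlapped.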

How the data were processed

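Amplicon libraries of cDNA were made with primers on the priming sites shared by the oligonucleotides and sequenced from 1 end, per the labels' protocols. The hTR table holds the raw read count per tile, barcode and library as the authors deposited it. The program that assigned reads is not given in the sources used here. Names of columns gave the sample of each of the 6, with 0 left over. Tables of the other pools were used only to count tile names. The members and lists were chosen with earlier results of these data known.

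Counts were summed over barcodes. Every tile of the pool passed filterByExpr and were fitted with edgeR 4.0.16 in R 4.3.3 (TMM, quasi-likelihood F test, robust estimation), and Benjamini-Hochberg adjusted p values under 0.05 over all tiles were called. The SE was derived from the fold change and the F statistic, as the size of the first over the root of the second. Log2 ratios are log2 CPM (prior count 2) of the immunoprecipitate minus Input of the same number. DESeq2 1.42.0 was an alternative. The scripts were tested on simulated tile counts, with the same dispersion for every tile and without a replicate shift or barcode noise. That test does not bear on how reliable the calls here are.

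The labels number replicates in both fractions without saying what a number shares. Deviations of same-numbered libraries from their group mean correlated over all tiles with r of 0.90, 0.78 and 0.69. Input replicate 3 gave a higher r with immunoprecipitate replicate 2 (0.75) than with immunoprecipitate replicate 3 (0.69). Input replicate 2 with immunoprecipitate replicate 3 gave 0.66. As replicate 1 stands apart from the mean, these r cannot show how replicates 2 and 3 pair. The log2 ratios and the block took the numbers as pairs, which was not tested. Within tiles hTR_1 to hTR_193 the same-numbered values were 0.21, 0.12 and -0.05.

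Tiles were named by a rule: the 10 highest and 10 lowest fold changes in replicates 2 and 3, the 5 smallest p of the 6 libraries, 3 windows at each end, 5 tiles on each side of the border, and the 3 tiles of most reads, of fewest reads and of most unequal replicates.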

Additional observations from a re-analysis of the deposited data

How the results depend on the processing

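Calls within tiles hTR_1 to hTR_193 varied with the libraries, the barcodes and the block used. In the 6 libraries the 0 tiles called higher became 19 with the replicate block (177 in the pool) and 25 with the block and library size only (199 in the pool), and ranged from 0 to 4 when 1 library was left out. In replicates 2 and 3 the 33 called higher became 12 and 18 with odd-numbered and even-numbered barcodes, 4 at a log2 fold change of at least 1, where the 202 of the pool became 169, 172 and 88. Without 1 library the count was 6 to 43 (138 to 225 in the pool). The pairing by replicate number changed no call among the named tiles of that fit, and gave 25 higher. RLE size factors, library size only and DESeq2 gave 22 each (182, 192 and 182 in the pool). The 1 tile called lower became 2 with RLE size factors and with DESeq2, 0 with library size only, without the barcode of most reads, with odd-numbered barcodes and at a log2 fold change of at least 1, and 0 to 13 without 1 library, where the 201 of the pool stayed at 185 or more except at a log2 fold change of at least 1 (62) and without either Input library (163 and 140). Filters on low counts left all counts as they were. Among the named tiles, 3 of the lowest changed sign. With 1 library left out hTR_65 ranged from -0.80 to 0.15 (highest without Input replicate 3) and hTR_86 from -1.58 to 0.19 (highest without immunoprecipitate replicate 2), and with odd-numbered barcodes hTR_183 was at 0.093. None was called where its sign changed. The median log2 ratio of the range was 0.19 in replicate 1 with library size only and 0.30 in replicate 2 with RLE. As a median over barcodes it was 0.82 in replicate 1 and -0.28 in replicate 2, and its distance from the other tiles in replicate 2 was then 0.15. The cause of these changes was not tested. Odd and even barcodes and the block with library size only were added after the data were seen.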

Other observations

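The share of a tile's reads held by 1 barcode was uneven. In the median tile the barcode of most reads held 18.9% to 24.0% of the reads in the libraries of replicates 2 and 3. For hTR_150 it held 74.1% of the reads of immunoprecipitate replicate 2, 47.9% in immunoprecipitate replicate 3, 35.2% in immunoprecipitate replicate 1 and 41.0% in Input replicate 3, the highest share of any tile of the range in each of these libraries. For hTR_119 it held 43.3% and 50.4% in Input replicates 1 and 2. Both tiles were picked for these values. Among the other tiles of the pool the median tile gave 17.7% to 18.5% of its reads to 1 barcode in the libraries of replicates 2 and 3.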
